A study of Rattus norvegicus with 12 samples.

Results

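The genes of cysteine, taurine and glutathione synthesis were examined in the livers of 6 female iP10a rats that had free access to ethanol (EtOH animals) and 6 that drank water (control animals). The set named 9 genes, Csad, Cdo1, Suox, Cbs, Cth, Gclc, Gclm, Gss and Ggt1, and its members were found by gene name in the deposited table of 34391 transcripts. A name match was found for 8 of the 9 genes, with 12 transcripts between them, all above 0 in at least 1 liver and so among the 21718 transcripts tested. Ggt1 was not found under that name and was not analysed here. The set was selected on knowledge of how EtOH and control livers differed in these data, so the values of its members in that comparison are a description and support nothing further. Where a gene had several transcripts, its main transcript was the one with the highest mean level over all 12 livers.

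Both groups were of the inbred, alcohol-preferring iP10a strain, bred for high voluntary ethanol intake, and every animal was female. For 23 weeks EtOH animals could choose between water and ethanol at 10, 20 and 30% (v/v), and control animals had water only. Animals were 38 weeks old apart from EtOH animal 6, which was 39 weeks old. Poly(A) RNA was sequenced in 1 library per liver, and all libraries shared a single lane. Levels are given as RPKM, reads scaled to transcript length and to the mapped reads of the library. Being per length, they put transcripts of different length on a common scale. Comparisons between transcripts also depend on how shared reads were assigned, which no source used here states.

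In liver, sulfur moves from the methionine cycle into cysteine by transsulfuration: cystathionine beta-synthase (Cbs) joins homocysteine to serine, and cystathionine gamma-lyase (Cth) releases cysteine. Cysteine is then oxidized by cysteine dioxygenase (Cdo1) and decarboxylated by cysteine sulfinic acid decarboxylase (Csad) on the way to taurine, which is joined to bile acids, or it is used by glutamate-cysteine ligase (catalytic subunit Gclc, modifier subunit Gclm) and glutathione synthetase (Gss) to make glutathione. Sulfite oxidase (Suox) ends the other route of cysteine sulfur, to sulfate, and Ggt1 is the gamma-glutamyl transferase that begins the breakdown of glutathione outside the cell.

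The main transcripts of 4 of the 8 genes were called lower in the EtOH livers, those of Csad, Cbs, Gclc and Gclm, and 0 were called higher (2 with an unadjusted p below 0.05, Cdo1 and Suox, and 1, Cdo1, with limma voom). Called here means an adjusted p below 0.05 in limma, fitted to all 21718 transcripts on quantile-normalized log2(RPKM + 0.5). Of all transcripts tested, 2.42% were called and 1.29% were called lower. The groups did not overlap for 5 of the 8 main transcripts, the 4 called ones and Cdo1, which was higher in the EtOH livers. Over all transcripts, 3.1% had groups that did not overlap. The median log2 fold change of the 8 main transcripts was -0.41, and that of all transcripts tested was 0.00019. Since the genes were chosen with these values known, nothing is read from the difference between these shares. Of the 4 other transcripts of the genes, 0 were called by limma, by limma voom or by an unmoderated test of square-root values, and 3 had an unadjusted p below 0.05. Over all transcripts the directions of the calls moved with the scaling, from 281 lower and 245 higher here to 648 lower and 126 higher without normalization between livers.

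Recovered reads per liver ranged from 2610238 to 4318141 in the control group and from 3945593 to 6030028 in the EtOH group, so the EtOH libraries were deeper as a group. These are the smallest whole numbers that fitted the RPKM values, so a factor common to all livers would be lost. They are fewer than the average of sequenced reads per sample that the paper gives. Main transcripts of the set had between 65 and 7763 reads in a liver. In bulk liver, fewer cells of a type and less RNA per cell cannot be told apart. Hepatocyte markers were abundant in all livers, with summed levels of 86151 to 114304 RPKM over 7 genes in the control group and 94533 to 120724 in the EtOH group. Of these only Cps1, an enzyme of the urea cycle, was called, and it was higher in the EtOH livers (log2 fold change 0.58, adjusted p = 0.022 from limma). Alb and Tf could not be called, because quantile normalization removed any difference between the groups (log2 fold change 1.9e-15 and 1.1e-16). As deposited, Alb averaged 70352 RPKM in the control and 79085 in the EtOH livers, and Tf 15252 and 15074. Summed over the 4 Kupffer cell markers measured, levels were 80.9 to 121 RPKM in the control and 109.5 to 133 in the EtOH livers, and 3 of the 4 (Clec4f, Cd163 and Vsig4) were called higher. Of 6 stellate cell markers 1, Col3a1, was called higher, with summed levels of 23.5 to 31.8 RPKM in the control and 29.1 to 48.5 RPKM in the EtOH livers. None of the 4 cholangiocyte, 2 endothelial or 6 lymphocyte markers was called by limma or by voom (1 endothelial marker, Lyve1, had an unadjusted p below 0.05), and no marker of any list was at 0 in all livers. What part depth or these cells had in the levels of the set was not tested.

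**Figure D1:**
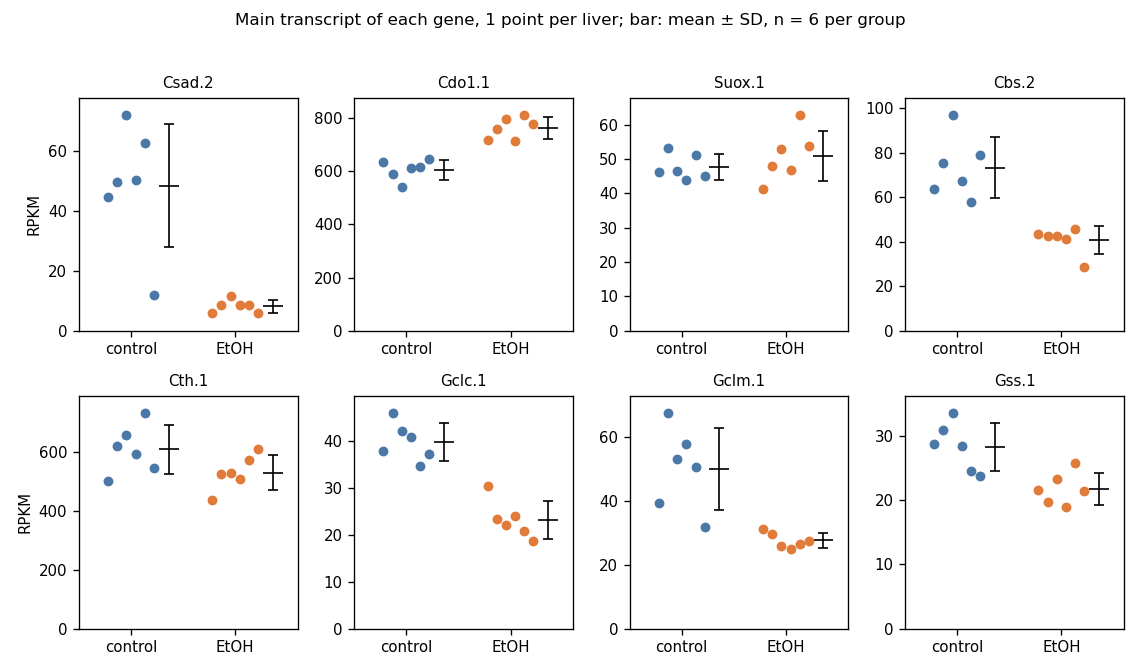
RPKM (vertical axis, linear, starting at 0) of the main transcript of each of the 8 genes in each control (blue) and EtOH (orange) liver, with black bars for the mean ± SD (n = 6 per group). The EtOH points of Csad.2, Cbs.2, Gclc.1 and Gclm.1 all sit below the control points, those of Cdo1.1 sit above them, and 1 control liver is close to the EtOH livers for Csad.2 (11.8 RPKM) and for Gclm.1 (31.8 RPKM).

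For the 4 called genes the bases just upstream of the start are shown, to let the promoters of genes that were lower together be compared. Each run is the 250 bases before the annotated start in RefSeq (build GRCr8), written 5′ to 3′ on the strand of the gene. The runs lie at chr7:135215582-135215831 (Csad, minus strand), chr20:9733926-9734175 (Cbs, minus strand), chr8:87510226-87510475 (Gclc, plus strand) and chr2:213031885-213032134 (Gclm, plus strand). Capitals mark a match to the core of the antioxidant response element, the site that NRF2 binds.
Csad: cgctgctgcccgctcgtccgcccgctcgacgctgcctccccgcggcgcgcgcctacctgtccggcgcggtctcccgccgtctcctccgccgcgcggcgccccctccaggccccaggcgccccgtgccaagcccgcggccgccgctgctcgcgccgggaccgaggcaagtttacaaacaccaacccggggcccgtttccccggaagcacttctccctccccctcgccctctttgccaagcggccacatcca
Cbs: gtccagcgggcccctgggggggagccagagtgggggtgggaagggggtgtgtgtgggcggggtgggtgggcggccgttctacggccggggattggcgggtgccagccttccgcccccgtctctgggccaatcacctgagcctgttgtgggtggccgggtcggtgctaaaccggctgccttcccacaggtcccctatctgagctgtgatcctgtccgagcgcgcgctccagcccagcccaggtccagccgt
Gclc: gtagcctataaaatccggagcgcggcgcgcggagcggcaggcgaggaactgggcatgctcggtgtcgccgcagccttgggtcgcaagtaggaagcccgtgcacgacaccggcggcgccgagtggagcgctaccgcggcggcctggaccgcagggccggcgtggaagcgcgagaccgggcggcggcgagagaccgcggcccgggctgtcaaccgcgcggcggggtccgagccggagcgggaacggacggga
Gclm: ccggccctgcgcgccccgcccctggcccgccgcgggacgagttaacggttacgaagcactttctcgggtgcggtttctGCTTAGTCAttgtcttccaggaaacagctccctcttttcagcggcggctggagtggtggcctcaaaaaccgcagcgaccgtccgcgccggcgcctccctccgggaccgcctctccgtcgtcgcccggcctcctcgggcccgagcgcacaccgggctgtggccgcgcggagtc

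The Gclm run held the antioxidant response element core, TGACNNNGC, on its minus strand, written as GCTTAGTCA and lying 164 to 172 bases before the start. That core was found, on either strand, in 10.1% of 33469 promoters of this length, and in no other of the 8 genes of the set with a promoter sequence. Neither the amino acid response core TGATGNAA (3.40% of promoters) nor the sterol response element TCACNCCAC (0.974%) was found in any of these 8 runs. An E-box, CACGTG, stood 173 to 178 bases before the start of Cth, and was present in 5.59% of promoters. No match overlapped another. Windows of this length hold only the letters next to the start, and no promoter of Cdo1 was matched. The 4 called genes had GC-rich runs, at 76.0% for Csad, 74.8% for Gclc, 71.2% for Cbs and 70.4% for Gclm, against a median of 51.2% over all promoters. The runs of the genes not called were at 64.8% for Cth, 55.2% for Gss and 45.6% for Suox. Among these 7 genes the order by GC content thus separated the called ones from the others. Cdo1, without a promoter, and Ggt1 (58.0%), not analysed, are outside this order. With 7 genes, split on the comparison they were chosen on, this is a description. The runs lie before the start, outside the transcripts, and whether their base composition had a part in the levels was not tested.

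Csad, the decarboxylase that commits cysteine sulfinate to hypotaurine and taurine, was down-regulated most among these genes. Its main transcript, Csad.2 (chromosome 7, positions 140917828 to 140960361 as the authors list them), lay between 11.8 and 72.0 RPKM in the control livers, with a median of 49.98, and between 5.77 and 11.5 in the EtOH livers, with a median of 8.44. The groups did not overlap, but control animal 6, at 11.8 RPKM, was next to the highest EtOH liver, while the other 5 control livers were at 44.6 RPKM or more. Mean RPKM was 48.5 ± 20.6 in the control and 8.13 ± 2.09 in EtOH animals (n = 6 each, SD), a level 5.97 times lower in the EtOH animals (limma log2 fold change -2.22, SE 0.35, adjusted p = 0.0081). In all, 2514 recovered reads stood behind the control values and 622 behind the EtOH values. Without control animal 6 the log2 fold change was -2.56, and without any other liver it lay between -2.33 and -2.09, called each time.

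A second transcript, Csad.1, spans the same positions in the authors' list and was near the limit of detection. It had 48 reads over 4 control livers and 8 reads in 1 liver, EtOH animal 4, and was listed at 0 in the other 7 livers, where 3 reads would have given between 0.193 and 0.315 RPKM. It was not called (adjusted p = 0.28 from limma). Csad.2 made up 98.1% ± 1.90 of the summed Csad RPKM in the control and 98.9% ± 2.64 in EtOH animals (n = 6 each, SD), so the lower level of the gene was that of its main transcript.

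Cdo1, which makes the substrate of Csad, had higher levels in the EtOH livers but was not called. Cdo1.1 (chromosome 18, positions 40914028 to 40928671) lay between 539.9 and 646 RPKM in the control livers, with a median of 614, and between 716 and 811 in the EtOH livers, with a median of 769. Every EtOH liver was above every control liver. Mean RPKM was 607 ± 37.8 against 763 ± 40.0 (SD, n = 6 each), or 1.26 times higher in the EtOH animals, but the adjusted p was just above the threshold (limma log2 fold change 0.35, SE 0.085, adjusted p = 0.054). The call depended on the setting: Cdo1 was called without normalization between livers (adjusted p = 0.011 from limma), and also with median scaling, with either filter on low levels, with limma voom on recovered reads and without any of control animals 1, 3 and 6.

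Suox, the mitochondrial enzyme that turns sulfite into sulfate, had overlapping groups. Suox.1 (chromosome 7, positions 1973473 to 1976040) ranged from 43.9 to 53.3 RPKM in the control livers (median 46.5) and from 41.2 to 62.8 in the EtOH livers (median 50.5). It was not called, with a log2 fold change of 0.25 and a 95% interval of 0.066 to 0.43 (adjusted p = 0.16 from limma). As deposited, without quantile normalization, the log2 fold change was 0.085.

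The difference between these scales touches all the genes here. Among the 2215 transcripts with a mean of at least 20 RPKM, EtOH and control livers differed by a median of -0.14 on the log2 scale as deposited and of 0.0020 after quantile normalization. Each log2 fold change given is the quantile-normalized one unless another scale is named, and each ratio of means is of RPKM as deposited.

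Of the transsulfuration enzymes, Cbs was down-regulated and Cth was not called. Cbs.2 (chromosome 20, positions 10047479 to 10072258) lay between 57.7 and 96.9 RPKM in the control livers (median 71.5) and between 28.6 and 45.9 in the EtOH livers (median 42.6). All EtOH livers were below all control livers, and EtOH animal 6 was the lowest, well under the other 5, which spanned 41.3 to 45.9 RPKM. Mean RPKM was 73.4 ± 13.9 in the control and 40.7 ± 6.13 in EtOH animals (n = 6 each, SD), 1.80 times lower (limma log2 fold change -0.67, SE 0.13, adjusted p = 0.025). The call was lost without control animal 2 (log2 fold change -0.66, adjusted p = 0.054 from limma).

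The other Cbs transcripts did not follow Cbs.2. Cbs.1, over the same positions, was at 26.5 ± 5.84 RPKM in the control and 28.4 ± 1.13 in EtOH animals (n = 6 each, SD; limma log2 fold change 0.29, SE 0.12, adjusted p = 0.27). Cbs.3, listed up to position 10072089, was at 3.23 ± 1.44 RPKM in the control and 4.96 ± 1.04 in EtOH animals (n = 6 each, SD; limma log2 fold change 0.69, SE 0.26, adjusted p = 0.21). Neither was called, and their log2 fold changes were above 0 where that of Cbs.2 was below it. Summed over the 3 transcripts, Cbs was at 103 ± 16.4 RPKM in the control livers and 74.1 ± 6.66 in EtOH animals (n = 6 each, SD), again with no overlap, so the summed level was 1.39 times lower where the main transcript alone was 1.80 times lower. Cbs.2 held 61.8 to 76.9% of the sum in the control livers and 46.7 to 57.8% in the EtOH livers, ranges that did not overlap. The sum and the shares were looked at after the transcripts' values had been seen and come from the comparison the genes were chosen on, so no test is given. No source used here says how reads shared by transcripts of a gene were assigned, and the transcripts of Cbs are therefore less certain than their sum.

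**Figure D2:**
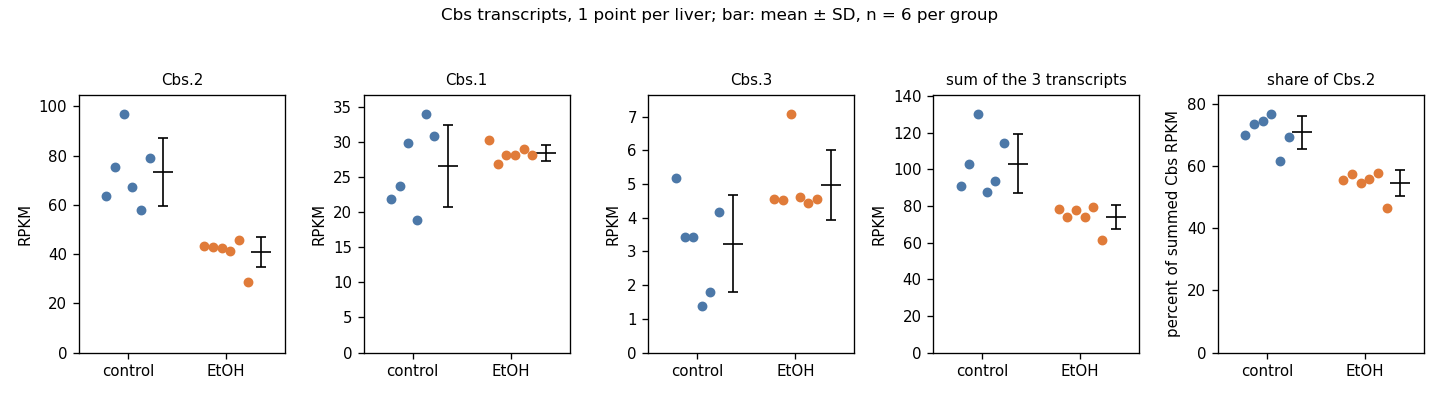
RPKM of each Cbs transcript and of their sum, and the share of Cbs.2 in that sum in percent (vertical axes start at 0), for each control (blue) and EtOH (orange) liver, with the mean ± SD (n = 6 per group). The groups are apart for Cbs.2, for the sum and for the share of Cbs.2, and overlap for Cbs.1 and Cbs.3. EtOH animal 6 is lowest in Cbs.2 (28.6 RPKM) and in its share (46.7%).

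Cth, the next enzyme, was among the most abundant of the set. Cth.1 (chromosome 2, positions 256056575 to 256082265) ranged from 500.1 to 731 RPKM in the control livers (median 607) and from 437 to 608 in the EtOH livers (median 526), and the groups overlapped. The log2 fold change was -0.16, with a 95% interval of -0.33 to 0.0029 (adjusted p = 0.33 from limma). The less abundant Cth.2 was at 151 ± 24.1 RPKM in the control and 139.6 ± 12.0 in EtOH animals (n = 6 each, SD), and its log2 fold change, 0.046 after quantile normalization, was -0.10 as deposited (adjusted p = 0.84 and 0.64 from limma). Cth.1 made up 80.1% ± 1.31 of the summed Cth RPKM in the control and 79.1% ± 1.34 in EtOH animals (n = 6 each, SD), ranges that overlapped, unlike the shares of Cbs.2.

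Both subunits of glutamate-cysteine ligase, the step that limits the rate of glutathione synthesis, were down-regulated. Gclc.1 (chromosome 8, positions 82724429 to 82762845) lay between 34.6 and 45.9 RPKM in the control livers (median 39.4) and between 18.6 and 30.3 in the EtOH livers (median 22.7). No EtOH liver reached the lowest control liver. Mean RPKM of this catalytic subunit was 39.8 ± 4.04 in the control and 23.2 ± 4.00 in EtOH animals (n = 6 each, SD), 1.71 times lower (limma log2 fold change -0.61, SE 0.11, adjusted p = 0.018). It was called with each liver left out in turn (log2 fold change -0.70 to -0.54).

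Gclm.1, the modifier subunit (chromosome 2, positions 218895434 to 218915489), lay between 31.8 and 67.3 RPKM in the control livers (median 51.8) and between 24.9 and 31.2 in the EtOH livers (median 27.0). The groups were apart by a narrow margin, with control animal 6, the lowest control liver, at 31.8 RPKM and EtOH animal 1, the highest EtOH liver, at 31.2. The control livers varied more, with a coefficient of variation of 25.5% against 8.59% in the EtOH livers. Mean RPKM was 49.9 ± 12.7 in the control and 27.6 ± 2.37 in EtOH animals (n = 6 each, SD), 1.81 times lower (limma log2 fold change -0.64, SE 0.14, adjusted p = 0.034). This was the least stable of the 4 calls: leaving out any of 9 livers, control animals 2 to 5 and each EtOH animal but number 1, ended it (limma adjusted p up to 0.073), and in an unmoderated test of square-root values with a pooled error term (adjusted p = 0.079). Without control animal 6 the adjusted p was 0.0071 from limma, and the log2 fold change was below 0 under every setting (-0.81 to -0.55).

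Gss, which adds glycine to complete glutathione, was not called. Gss.1 (chromosome 3, positions 146057517 to 146087820) ranged from 23.8 to 33.5 RPKM in the control livers (median 28.5) and from 18.9 to 25.8 in the EtOH livers (median 21.5), with overlap. Mean RPKM was 28.3 ± 3.70 and 21.8 ± 2.50 (SD, n = 6 each). The log2 fold change was -0.21, with a 95% interval of -0.40 to -0.022 (adjusted p = 0.26 from limma), and -0.37 as deposited.

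**Figure D3:**
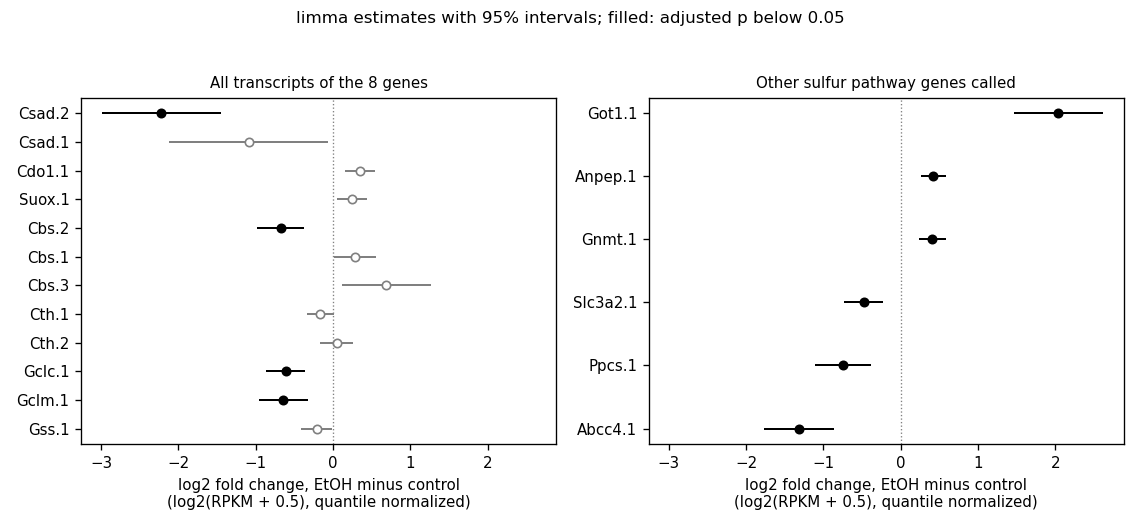
Log2 fold change (EtOH minus control, horizontal axis, limma on quantile-normalized log2(RPKM + 0.5)) with its 95% interval for the 12 transcripts of the set on the left and for the 6 called genes of neighbouring sulfur pathways on the right; filled black points have an adjusted p below 0.05 and open grey points do not. Csad.2 lies at -2.22, the calls of Cbs.2, Gclc.1 and Gclm.1 between -0.67 and -0.61, and Got1.1 at 2.04.

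Ratios of the RPKM of main transcripts were taken within each liver, from the values as deposited, so that a single scaling factor per liver cancels. The genes in them were chosen with the EtOH and control values known, so the ratios are given without a test. The ratio of Gclc to Gclm averaged 0.833 ± 0.195 in the control and 0.839 ± 0.115 in EtOH animals (n = 6 each, SD), with overlapping ranges of 0.682 to 1.17 and 0.678 to 0.972. Control animal 6 was the highest, above every EtOH liver. The ratio of Cbs to Cth was 0.122 ± 0.0249 in the control and 0.0782 ± 0.0170 in EtOH animals (n = 6 each, SD), with overlapping ranges. It is that of Cbs.2 to Cth.1, and no ratio of sums was taken. Summed Cbs was 1.39 times lower in the EtOH livers, where Cbs.2 was 1.80 times lower. Summed Cth was 1.13 times lower, where Cth.1 was 1.15 times lower. The ratio of Csad to Cdo1, successive enzymes on the way to taurine, was 0.0816 ± 0.0381 in the control and 0.0106 ± 0.00253 in EtOH animals (n = 6 each, SD). Control livers ranged from 0.0182 to 0.133 and EtOH livers from 0.00771 to 0.0145, so control animal 6 was again the nearest to the EtOH livers. Csad stood at 1.01 ± 0.428 of the Suox level in the control livers and at 0.160 ± 0.0386 of it in EtOH animals (n = 6 each, SD).

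**Figure D4:**
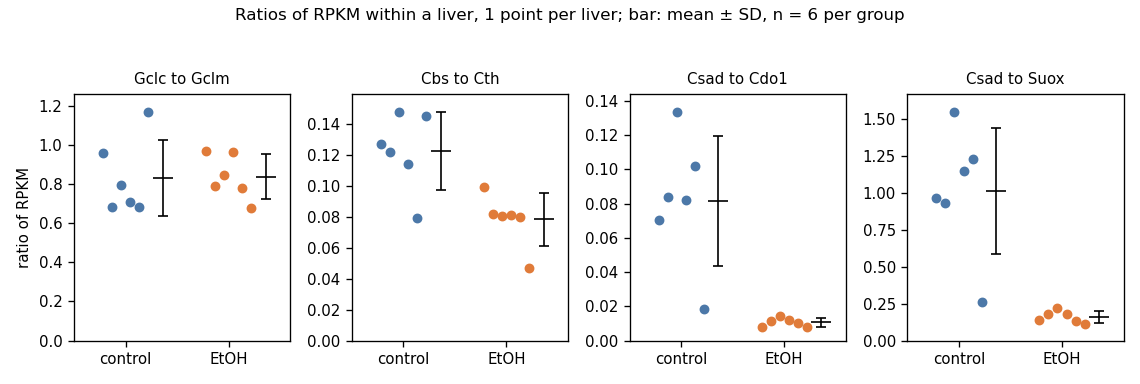
Ratios of the RPKM of main transcripts within each control (blue) and EtOH (orange) liver (vertical axes start at 0), with the mean ± SD (n = 6 per group). The ratios of Csad to Cdo1 and to Suox do not overlap between the groups and are lower in the EtOH livers, that of Cbs to Cth overlaps, and that of Gclc to Gclm overlaps, with the highest control liver (1.17) above all EtOH livers.

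By level of the main transcript, Cth and Cdo1 led in both groups. In the control livers Cth (608 ± 82.1 RPKM) and Cdo1 (607 ± 37.8) could not be ranked beyond their spread, and Cbs (73.4 ± 13.9) came next. Gclm (49.9 ± 12.7), Csad (48.5 ± 20.6) and Suox (47.7 ± 3.68) lay within each other's spread, and the mean of Gclc (39.8 ± 4.04) was within the spread of Gclm and Csad. Gss (28.3 ± 3.70) had the lowest mean, although Csad was lower than Gss in control animal 6. In the EtOH livers Cdo1 (763 ± 40.0) stood above Cth (530.0 ± 58.9) with no overlap, Suox (50.9 ± 7.38) and Cbs (40.7 ± 6.13) followed with overlapping ranges, and Gclm (27.6 ± 2.37), Gclc (23.2 ± 4.00) and Gss (21.8 ± 2.50) lay close together (SD, n = 6 each). By its mean Csad was at rank 5 among the 8 genes in the control livers, a place not resolved from those of Gclm, Suox and Gclc. In the EtOH livers Csad was at rank 8, with all its values below those of the other genes. The order was not the same with transcripts of a gene summed. Summed Cth averaged 759 ± 104 RPKM in the control livers. In the EtOH livers it ranged from 557 to 745 RPKM, which overlapped Cdo1 (716 to 811). Summed Cbs averaged 74.1 ± 6.66 RPKM in EtOH animals, above the mean of Suox (SD, n = 6 each).

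Within groups the genes of the set did not move as a block from liver to liver. After subtracting group means, 14 of the 28 pairs of main transcripts had a Pearson r above 0 over the 12 livers, with a median of 0.0063. The values of a pair come from the same library, and these are descriptions. Gclc and Gclm had an r of 0.37 (Spearman's rho 0.41), Cbs and Gclc the highest r of the set at 0.62 (rho 0.33), and Cth and Gclc the lowest at -0.76 (rho -0.64).

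By the same measure, the transcripts most like Csad among 11086 with a mean of at least 1 RPKM were those of D3ZKM0_RAT (r 0.95), Tcf25 (0.93), Ift52 (0.92), Pus7 (0.91) and RGD1560398 (0.90). Control animal 6 carried part of this likeness, since without it the r of these 5 was between 0.72 and 0.87. None of the 5 was called between the groups (adjusted p of 0.33 or more from limma). Those most like Gclc were Lrrc59 (r 0.87), F1M0U5_RAT (0.87), Ghitm (0.86), Stmn1 (0.85) and Acsl3 (0.85), none of them called.

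Around these genes, 67 others of sulfur amino acid metabolism and its regulation were listed, of which 59 were found and 57 could be tested. Of these 57, 3 were called higher and 3 lower, or 10.5%, where 2.42% of all transcripts tested were called. Their median log2 fold change was 0.016, and that of all transcripts was 0.00019. The lists were drawn up with earlier results of these livers known, so nothing is read from these shares. Ggt6 and Slc7a9 were listed at 0 in every liver. By role, calls were made for 1 of 8 genes of taurine and cysteine sulfinate metabolism, 1 of 7 of the methionine cycle, 1 of 8 of glutathione breakdown, 1 of 7 of glutathione reduction and transport, 1 of 5 of cystine and cysteine uptake, 1 of 7 of coenzyme A synthesis and 0 of 4 of sulfide and sulfite oxidation (1 with an unadjusted p below 0.05, Tst).

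Got1, the cytosolic aspartate aminotransferase, which can also transaminate cysteine sulfinate away from taurine, was the called gene with the largest difference here. It lay between 30.2 and 54.9 RPKM in the control livers (median 44.4) and between 90.7 and 339.5 in the EtOH livers (median 154), without overlap. Mean RPKM was 43.8 ± 7.95 and 176 ± 88.5 (n = 6 each, SD; limma log2 fold change 2.04, SE 0.26, adjusted p = 0.0026). The EtOH livers were spread widely, with EtOH animal 5 the highest and EtOH animal 1 the lowest. The other 7 tested genes of taurine and cysteine sulfinate metabolism, among them the bile acid conjugating enzyme Baat and the taurine carrier Slc6a6, were not called. Baat had a log2 fold change of -0.042 (adjusted p = 0.73 from limma). Slc6a6 averaged 2.21 RPKM in the control and 3.76 in the EtOH livers, with overlap (log2 fold change 0.72, adjusted p = 0.079 from limma).

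Gnmt, the methyltransferase that consumes S-adenosylmethionine in liver, was called higher, with 141 to 162 RPKM in the control and 148 to 217 in the EtOH livers and overlapping groups (limma log2 fold change 0.41, SE 0.073, adjusted p = 0.017). That call was lost without normalization between livers (log2 fold change 0.25), with median scaling and with limma voom on recovered reads. The other 6 tested genes of the methionine cycle that feed homocysteine to Cbs were not called. Anpep, a peptidase that can split the dipeptide left by gamma-glutamyl transferase, was called higher, at 25.8 to 30.5 RPKM in the control and 29.2 to 36.9 in the EtOH livers, with some overlap (limma log2 fold change 0.42, SE 0.067, adjusted p = 0.0084), a call that voom did not give.

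Called lower was Abcc4, an export pump of the cell membrane that carries bile acids together with glutathione. It lay between 2.48 and 5.39 RPKM in the control and between 0.791 and 1.97 in the EtOH livers, without overlap, on 168 and 72 reads over the groups (limma log2 fold change -1.32, SE 0.20, adjusted p = 0.0066). Ppcs, which joins cysteine to phosphopantothenate in the synthesis of coenzyme A, was at 21.1 to 46.8 RPKM in the control and 11.6 to 19.8 in the EtOH livers, also without overlap (limma log2 fold change -0.74, SE 0.16, adjusted p = 0.034). Slc3a2, the shared heavy chain of several amino acid exchangers including that for cystine, had overlapping groups at 17.4 to 30.5 and 14.0 to 18.8 RPKM (limma log2 fold change -0.48, SE 0.11, adjusted p = 0.046). The call of Ppcs ended when control animal 2, 4 or 5, or EtOH animal 1, 2, 3 or 5, was left out (limma adjusted p up to 0.073), and that of Slc3a2 when any liver but control animal 6 or EtOH animal 1 was (up to 0.098). Both calls also ended in the unmoderated test of square-root values (adjusted p = 0.077 for Ppcs and 0.080 for Slc3a2). Slc7a11, the cystine-specific partner of Slc3a2, was barely detected, with means under 0.05 RPKM in both groups.

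Genes known to regulate the set were measured and none was called by limma: 0 of 7 regulators of glutamate-cysteine ligase (Nfe2l2, Nfe2l1, Keap1, Bach1, Maff, Mafg and Mafk) and 0 of 4 of taurine synthesis (Nr1h4, Nr0b2, Nr5a2 and Hnf4a). In each list 1 gene had an unadjusted p below 0.05, Keap1 and Nr5a2. Nfe2l2, which encodes NRF2, was at 57.1 RPKM in the control and 46.2 in the EtOH livers (log2 fold change -0.15, adjusted p = 0.51 from limma), and Keap1, which holds NRF2 for degradation, was at 21.3 and 14.8 RPKM (log2 fold change -0.35, adjusted p = 0.077 from limma). With limma voom on recovered reads Keap1 was called lower (log2 fold change -0.50, adjusted p = 0.035). Gsr, which reduces oxidized glutathione, was picked out after its values were seen, since its groups did not overlap although it was not called (43.5 and 31.0 RPKM, log2 fold change -0.30, adjusted p = 0.12 from limma).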

How the data were processed

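Poly(A) RNA from 12 rat livers, 6 EtOH and 6 control, was sequenced in 101-nucleotide paired-end reads. Per the paper and the submitters' processing notes, the authors mapped reads with CLCbio Genomics Workbench 4.9 and deposited RPKM per transcript and liver, scaled to transcript length and mapped reads. No source used here names the genome build. The deposited table also holds the authors' own fold change, test statistic, p and FDR, which were not used. Groups came from the sample labels.

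The members and gene lists were chosen with earlier results of these data known. Named were all members, every called gene of the pathway lists, and the 5 transcripts most like Csad and Gclc. Symbols were matched by name, or through older symbols in RefSeq (Sqor is listed as Sqrdl).

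log2(RPKM + 0.5) was quantile normalized over the 12 livers for the 21718 transcripts that at least 1 liver showed above 0, and compared with limma 3.58.1 (R 4.3.3) with a mean-variance trend. P values were adjusted by Benjamini-Hochberg, with a threshold of 0.05. Each liver is a separate animal. Whole reads, from which depth was taken, were recovered from the steps of the RPKM values, as the smallest numbers that fitted within 0.01 of a read. Such numbers were found for all 21718. A transcript above 0 in only 1 liver always fitted, as 1 read, so this does not show that low counts are right. Duplicated molecules cannot be told from separate ones, so the limit of 3 reads covers counting error only. An exact permutation test of ratios within livers had been planned, but its p values are not given, because the genes were chosen on the same comparison. Other steps used scipy 1.17.1, pandas 2.3.3 and numpy 2.4.6 in Python 3.11.15. The scripts were tested on simulated data. Alternatives were pseudocounts of 0.1 and 1, other scalings, filters at a mean RPKM of 0.1 and 1, square-root values with a pooled test, limma voom on recovered reads, the animal number as a block and each liver left out in turn. Chosen after the values were seen were the shares and sums of transcripts of 1 gene, the naming of Gsr, and the list of genes lowest in control animal 6.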

Additional observations from a re-analysis of the deposited data

Results flagged for a closer look

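In 6 of the 46 groups of 6 livers examined, 1 liver stood apart, its gap to the next being a larger share of the group's range than Dixon's 95% critical value allows. Chance alone gives about 1 in 20 groups where groups are independent and values normally distributed. Some groups here share a transcript and some hold many values at 0, so nothing is read from the count. EtOH animal 6, the animal aged 39 weeks, stood apart 3 times, in values that share Cbs.2. Its Cbs.2 level was 28.6 RPKM where the other EtOH livers began at 41.3, its ratio of Cbs to Cth was 0.0470 where they began at 0.0800, and Cbs.2 held 46.7% of its summed Cbs RPKM where they began at 54.7%. Csad.1 was above 0 in the EtOH group in EtOH animal 4 only, at 0.588 RPKM. Cbs.3 was highest in EtOH animal 3, at 7.07 RPKM, with the next EtOH liver at 4.63. Ppcs was highest among the control livers in control animal 3, at 46.8 RPKM, with the next at 28.3. Control animal 6 did not stand apart by this rule. It was the lowest control liver for Csad.2, Gclm, Gss, Abcc4, Slc3a2 and Ppcs, but not for Cbs.2 or Gclc.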

How the results depend on the processing

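Csad kept its call under all 21 alternatives, with a log2 fold change of -2.56 to -2.09, and Gclc under all but the replicate block. The number of members called was 4 as reported and 3 to 5 under the other settings, apart from 1 with the replicate block and 2 without control animal 2; it was 2 to 5 with each liver left out in turn. All calls among the members were lower except those of Cdo1. Over all transcripts, 526 were called, against 322 with the square-root pooled test, 860 with a minimum mean RPKM of 1, 113 with the replicate block and 212 to 656 with each liver left out. Normalization moved the split of directions: 281 lower and 245 higher as reported, 648 and 126 without normalization, 337 and 194 with median scaling and 448 and 139 with voom. The log2 fold change of Cth.2 turned from 0.046 to -0.10 without normalization, -0.011 with median scaling and -0.085 with voom; it was not called under any of them.

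Deviations of same-numbered livers from their group means had correlations of -0.067 to 0.032, and 1 of the 6 control livers correlated best with its own number. With 6 livers per group a weak pairing could go unseen, so whether the animal numbers pair the livers was not settled. With the replicate block Csad was the only member called. Of the 6 other pathway genes called, Gnmt, Abcc4, Slc3a2 and Ppcs lost their calls with it. The differences in log2 ratio, EtOH minus control, were -0.65 for Cbs to Cth, -2.76 for Csad to Cdo1 and -2.51 for Csad to Suox, the same with the replicate block, and -0.52, -2.63 and -2.54 after quantile normalization. These differences are of ratios of main transcripts, and they carry no test. With each liver left out they ranged from -0.77 to -0.51, from -3.15 to -2.57 and from -2.87 to -2.36. The difference for Gclc to Gclm, 0.029, had no stable sign, at -0.023 to 0.13 with each liver left out. The share of Cbs.2 was 16.3 percentage points lower in the EtOH livers.

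Behind each mean stand 6 animals of 1 sex and strain. The EtOH libraries were deeper, and what part depth or the assignment of reads between transcripts had in the differences was not tested.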
